A study of Mus musculus with 2 samples.

Results

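The genes described here are 10 general vascular endothelial genes and markers of capillarized vessels, listed by symbol: Pecam1, Cdh5, Kdr, Flt4, Tek, Tie1, Cd34, Plvap, Emcn and Egfl7. They are 10 of the 36461 symbols found among 38320 gene entries, and all 10 had a single entry and passed the filter on low values (a mean FPKM of at least 1), as did 12670 genes in all. FPKM divides the fragments of a gene by its transcript length and by the mapped fragments of the library, so levels of different genes can be compared on it. RNA-seq was performed on liver cells that stuck to a culture dish within 2 h of plating, a fraction meant to hold hepatic stellate cells and the myofibroblasts that arise from them. There were 2 libraries, 1 from Foxf1 fl/fl and 1 from αSMACreER;Foxf1-/- mice, each made from pooled RNA of an unstated number of animals. All mice were C57/Bl6 males, used at 6 to 8 weeks of age, that had received carbon tetrachloride (CCl4), a hepatotoxin, by injection 3 times a week for 5 weeks. The αSMACreER;Foxf1-/- mice, labelled αSMACreER;Foxf1 fl/fl in the sample titles, carried floxed Foxf1 alleles and a tamoxifen-inducible Cre under the smooth muscle actin promoter, which is active in myofibroblasts, while the Foxf1 fl/fl controls were littermates with floxed alleles and no Cre. Tamoxifen was given on 3 days of each week from week 2. The promoter that drives Cre is not an endothelial one.

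Each genotype had 1 pooled library, so the differences below have no check between replicates and carry no p-value. From the spacing of low FPKM values the libraries were estimated to hold about 9766932 (Foxf1 fl/fl) and 11356007 (αSMACreER;Foxf1-/-) mapped reads, a rough estimate that gave the approximate 95% counting intervals used below. These intervals cover counting error only, not differences between animals, pools or library preparations. In bulk RNA, fewer cells of a type and less RNA per cell cannot be told apart.

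Endothelial cells line every vessel, and in the liver most of them form sinusoids, whose walls are open (fenestrated) and lie on little basement membrane. During fibrosis sinusoids can close their fenestrae and take on features of ordinary capillaries, a change called capillarization, for which CD34 and basement membrane proteins are common markers. Vessel growth and stability depend on the VEGF receptors, which respond to growth factors of the VEGF family, and on the TIE receptors, through which angiopoietins act.

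Sequence before the start site was read from RefSeq for 7 of the 10 genes (build GRCm38.p6), in 9 windows of 250 bases, 3 of them for different start sites of Egfl7. No window was matched for Pecam1, Cdh5 or Plvap. The windows were searched on both strands for the ETS core GGAAG, since ETS factors act at many endothelial genes. They were also searched on both strands for the forkhead core TGTTTA, since FOXF1 is a forkhead factor. No match of one motif overlapped a match of the other. The 4 windows shown reach at most 30 bases into the annotated gene. They belong to a VEGF receptor, a TIE receptor and a pair of surface sialomucins. Windows with more matches are among those not shown. Capitals mark ETS core matches on either strand, and each sequence reads 5′ to 3′ on the strand of its gene.
Kdr, chr5:75978456-75978705, minus strand: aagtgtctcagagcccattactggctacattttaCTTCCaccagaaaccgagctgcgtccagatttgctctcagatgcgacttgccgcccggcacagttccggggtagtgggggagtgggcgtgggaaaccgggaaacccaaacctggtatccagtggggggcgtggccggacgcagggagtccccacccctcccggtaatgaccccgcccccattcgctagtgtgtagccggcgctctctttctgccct
Tek, chr4:94739039-94739288, plus strand: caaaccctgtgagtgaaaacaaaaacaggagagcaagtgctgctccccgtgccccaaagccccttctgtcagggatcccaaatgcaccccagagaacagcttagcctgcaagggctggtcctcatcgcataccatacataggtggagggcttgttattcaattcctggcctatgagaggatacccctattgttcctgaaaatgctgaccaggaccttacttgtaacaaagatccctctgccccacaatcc
Cd34, chr1:194938571-194938820, plus strand: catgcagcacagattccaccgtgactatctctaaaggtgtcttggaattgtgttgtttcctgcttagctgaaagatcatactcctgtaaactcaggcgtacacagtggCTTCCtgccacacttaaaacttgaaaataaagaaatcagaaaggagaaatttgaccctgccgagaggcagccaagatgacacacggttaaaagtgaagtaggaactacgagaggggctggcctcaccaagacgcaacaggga
Emcn, chr3:137340828-137341077, plus strand: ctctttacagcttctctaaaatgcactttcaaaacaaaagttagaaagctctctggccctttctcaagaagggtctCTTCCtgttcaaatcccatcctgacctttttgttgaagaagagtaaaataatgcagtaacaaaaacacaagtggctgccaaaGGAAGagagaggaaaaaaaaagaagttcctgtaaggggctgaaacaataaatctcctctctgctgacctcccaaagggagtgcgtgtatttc

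The ETS core occurred once in the windows of Kdr, Flt4 and Cd34, at 2 places for Emcn and at 6 for Tie1, and had no match for Tek. Among the 3 Egfl7 windows it occurred at 4, 2 and 0 places. Thus 7 of 9 windows held it, beside 64.1% of 32851 RefSeq windows of the same length. The windows of Flt4 and Egfl7 lay wholly inside the annotated gene, and that of Tie1 for 212 of its 250 bases. They come before start sites within those genes. The forkhead core had no match in any of the 9 windows and was found in 12% of all windows. A match is a description of letters and not a site of binding, and its absence says only that these letters are not in this window.

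Egfl7 is also the host of miR-126, an endothelial microRNA. Its mature 3′ arm was read from RefSeq and is shown with the seed (bases 2 to 8) in capitals.
mmu-miR-126a-3p, chr2:26591402-26591423, plus strand: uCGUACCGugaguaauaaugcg

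This stretch lies inside Egfl7, where 1 non-coding transcript has an exon over it and no coding transcript does. Mir126a is listed at 0 in both libraries, and this kind of library is not made to capture mature microRNAs, so the value says nothing of their level.

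The 10 endothelial genes were present at moderate to high levels in both libraries. None of them differed between the genotypes by 1.5-fold, except under another scaling or centring. Tek was at least 1.5-fold higher when the libraries were scaled to an equal FPKM sum (as were 21.4% of all genes). Egfl7 and Plvap were at least 1.5-fold lower when values were centred on a list of sinusoidal genes (as were 23.7% of all genes). Of the 10 genes 5 had a positive and 5 a negative log2 fold change (αSMACreER;Foxf1-/- minus Foxf1 fl/fl, on the log2(FPKM + 0.1) scale after scaling to the median ratio of all genes), with a median of 0.0020 and a range of −0.46 to 0.42, and 7 were positive with an equal FPKM sum. Among all genes that passed the filter the median was 0.0049, 12.8% were at least 1.5-fold higher in αSMACreER;Foxf1-/- cells and 13.2% at least 1.5-fold lower. These shares are 1616 and 1674 genes, which became 2752 and 1144 with an equal FPKM sum. Of 4144 genes at the level of these 10 (mean FPKM from 16.0 to 198), 4.56% were at least 1.5-fold higher and 9.85% lower, with a median of −0.078. The counting interval lay above no change for 4 genes (Cdh5, Kdr, Flt4 and Tek), where 28.8% of all genes did, and below it for 3 (Plvap, Emcn and Egfl7), where 27.5% of all genes did. For Pecam1, Tie1 and Cd34 it included 0. The FPKM of the 10 genes summed to 622 in Foxf1 fl/fl and, after scaling, to 577 in αSMACreER;Foxf1-/- cells. Without Egfl7 the other 9 genes summed to 393 and 410.

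**Figure D1:**
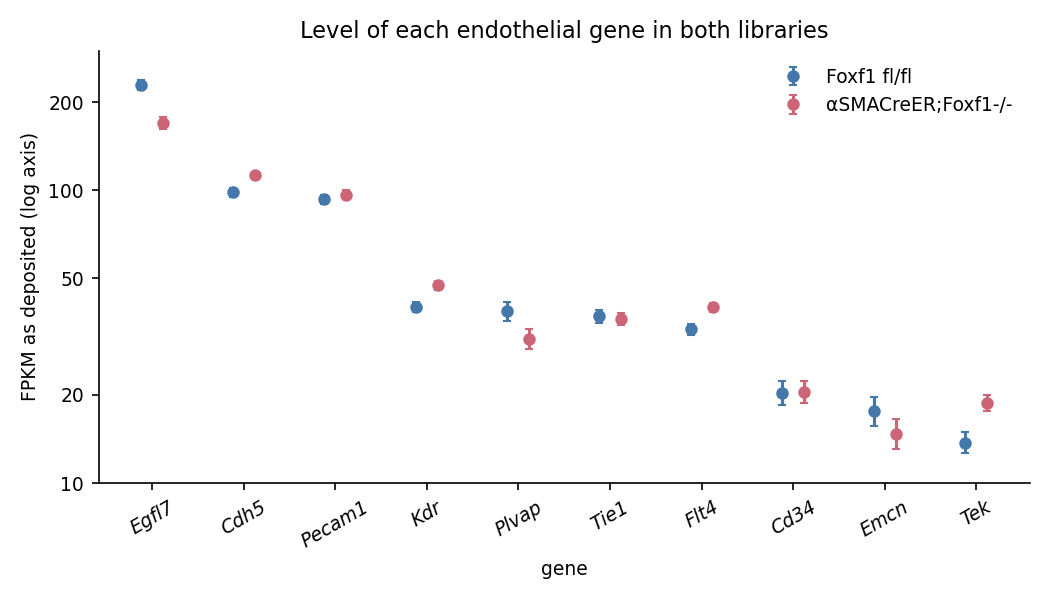
FPKM as deposited (log axis) of each of the 10 genes in the Foxf1 fl/fl (blue) and αSMACreER;Foxf1-/- (red) library, ordered by the Foxf1 fl/fl value, with bars for the approximate 95% counting interval of each single library. Egfl7 was highest in both libraries (229 and 170), Tek was lowest in Foxf1 fl/fl (13.8) and Emcn in αSMACreER;Foxf1-/- (14.7).

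In Foxf1 fl/fl cells the levels ran from Egfl7 through Cdh5 and Pecam1 to Kdr, Plvap and Tie1, then Flt4, then Cd34 and Emcn, with Tek last, a span of 16.6-fold. Within this order Cdh5 and Pecam1, Kdr and Plvap, Plvap and Tie1, and Cd34 and Emcn were neighbours whose counting intervals overlapped. In αSMACreER;Foxf1-/- cells the order was Egfl7, Cdh5, Pecam1, Kdr, Flt4, Tie1, Plvap, Cd34, Tek and Emcn, a span of 11.5-fold, and only Cd34 and Tek were neighbours with overlapping intervals. Egfl7 exceeded 96.3% and 95.7% of all filtered genes in the respective libraries, and Tek exceeded 59.7% and 67.1%. Estimated reads behind single values ranged from 305 (Emcn) to 3648 (Cdh5) in Foxf1 fl/fl and from 296 (Emcn) to 4849 (Cdh5) in αSMACreER;Foxf1-/-. Relative to its value, Emcn thus had the widest interval and Cdh5 the narrowest.

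Pecam1 and Cdh5 encode the adhesion molecules that hold endothelial cells to each other, PECAM-1 (CD31) and VE-cadherin. Pecam1 (ENSMUSG00000020717, chromosome 11 from 106654217 to 106750628 of GRCm38, minus strand, 8 annotated transcripts) had an FPKM of 93.3 in Foxf1 fl/fl and 96.6 in αSMACreER;Foxf1-/- cells. These levels were close to each other, and the log2 fold change of 0.02 had a counting interval of −0.05 to 0.10. Cdh5 (ENSMUSG00000031871, chromosome 8 from 104101625 to 104144511, plus strand, 2 transcripts) had 98.4 and 113. It was higher in the αSMACreER;Foxf1-/- library, with a log2 fold change of 0.17 (0.10 to 0.23), and 27.0% of all genes differed by less than this in either direction. Pecam1 stood at 0.947 of the Cdh5 level in Foxf1 fl/fl and at 0.858 in αSMACreER;Foxf1-/- cells. In both libraries Cdh5 and Pecam1 followed Egfl7 in the order of levels.

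Kdr and Flt4 encode VEGFR-2, the main signalling receptor for VEGF-A, and VEGFR-3, the receptor for VEGF-C that lymphatic and sinusoidal endothelium carry. Kdr (ENSMUSG00000062960, chromosome 5 from 75932827 to 75978458, minus strand, 3 transcripts) had an FPKM of 40.0 and 47.3, and Flt4 (ENSMUSG00000020357, chromosome 11 from 49609263 to 49652739, plus strand, 2 transcripts) had 33.5 and 39.8. Both receptors were higher in the αSMACreER;Foxf1-/- library by nearly the same amount, with log2 fold changes of 0.22 (0.14 to 0.30) for Kdr and 0.22 (0.14 to 0.31) for Flt4. They have the longest transcripts of the 10 genes, at 5924 and 6255 bases, and with the difference typical of genes of their length removed, as described below, both turned negative, to −0.12 and −0.11.

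The other genes of the VEGF system were read from a list of ligands, receptors and co-receptors, of which 7 of 8 passed the filter. Of these 5 had a positive and 2 a negative log2 fold change, 1 was at least 1.5-fold higher in αSMACreER;Foxf1-/- cells and 0 lower, with a median log2 fold change of 0.40 that came to 0.12 with the length trend removed. Vegfa, the main ligand of VEGFR-2, had an FPKM of 89.9 and 102, and Vegfc, the ligand of VEGFR-3, had 10.3 and 14.8, for log2 fold changes of 0.15 and 0.49. Flt1, the VEGF-A receptor with strong binding and weak signalling, had 19.4 and 26.1 (0.40). Kdr thus stood at 2.06 times the Flt1 level in Foxf1 fl/fl and 1.81 times in αSMACreER;Foxf1-/- cells. With the length trend removed Flt1 came to 0.04, Vegfa to 0.12 and Vegfc to 0.58. Of the neuropilins, which act as co-receptors, Nrp1 had 18.3 and 26.5 (0.51), and Nrp2 had 31.1 and 48.9. Nrp2 was the gene past 1.5-fold, at 0.62, and came to 0.26 with the length trend removed, where Nrp1 came to 0.41. The negative values were those of the ligands Vegfb, at 15.7 and 13.3 (−0.26, −0.58 to 0.06), and Pgf, at 3.41 and 3.04 (−0.18, −0.72 to 0.35), whose intervals included 0, and both were positive with the length trend removed, Pgf also with an equal FPKM sum.

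Tek and Tie1 encode the TIE receptors, TIE2, which binds angiopoietins, and TIE1, which pairs with it. Tek (ENSMUSG00000006386, chromosome 4 from 94739289 to 94874976, plus strand, 4 transcripts) had an FPKM of 13.8 in Foxf1 fl/fl and 18.8 in αSMACreER;Foxf1-/- cells, from about 584 and 929 reads. Its ratio of 1.34 after scaling was the highest of the 10 genes, and its log2 fold change was 0.42 (0.27 to 0.57), larger in size than that of 60.8% of all genes. It was also the single gene of the 10 to be 1.5-fold higher under any setting, at 0.61 when the libraries were scaled to an equal FPKM sum, and it stayed higher (0.22, with an interval of 0.075 to 0.37) with the length trend removed. Tie1 (ENSMUSG00000033191, chromosome 4 from 118471191 to 118490061, minus strand, 3 transcripts) had 37.2 and 36.3. Its log2 fold change was −0.06 (−0.16 to 0.04), and it had the opposite sign with an equal FPKM sum. It came to −0.25 (−0.35 to −0.14) with the length trend removed. Tie1 stood at 2.70 times the Tek level in Foxf1 fl/fl and at 1.93 times in αSMACreER;Foxf1-/- cells.

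Of 7 partners of the TIE receptors 4 passed the filter, 1 of them at least 1.5-fold higher and 0 lower. This was Ptprb, which encodes VE-PTP, the phosphatase that acts on TIE2 and VE-cadherin, with an FPKM of 15.5 and 25.6. Its log2 fold change of 0.69 (0.60 to 0.79) came to 0.20 with the length trend removed. Its longest transcript has 11911 bases. Tek stood at 0.888 of the Ptprb level in Foxf1 fl/fl and 0.735 in αSMACreER;Foxf1-/- cells. Angpt2, a ligand that counters TIE2 signalling in many settings, had 22.0 and 23.4 (0.06, −0.08 to 0.20). Angpt1, the activating ligand that perivascular cells make, was near the limit of these libraries at 0.0257 and 0.0992, about 1 and 5 reads, and was not compared. Dok2, an adaptor that binds TIE2 and is also found in blood cells, had 42.3 and 29.5 (−0.54, −0.71 to −0.38). Dok2 came to −0.30 with the length trend removed.

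Cd34, Plvap and Emcn mark vessels other than healthy sinusoids. Cd34, a sialomucin of capillary endothelium and of blood progenitors, had an FPKM of 20.4 and 20.5 (ENSMUSG00000016494, chromosome 1 from 194938819 to 194961279, plus strand, 5 transcripts). The libraries held nearly equal levels of it, with a log2 fold change of −0.02 (−0.20 to 0.16) whose sign turned in the values as deposited, under upper-quartile scaling and when FPKM sums were made equal. Plvap, which forms the diaphragms of fenestrae and caveolae, had 38.7 and 31.0 (ENSMUSG00000034845, chromosome 8 from 71497765 to 71511752, minus strand, 1 transcript). It was lower in the αSMACreER;Foxf1-/- library at a ratio of 0.787, with a log2 fold change of −0.34 (−0.50 to −0.19), which came to −0.13 (−0.29 to 0.027) with the length trend removed. Emcn, the sialomucin endomucin of veins and capillaries, had 17.6 and 14.7 (ENSMUSG00000054690, chromosome 3 from 137341067 to 137432185, plus strand, 4 transcripts). It was also lower, at −0.28 (−0.51 to −0.05). With the length trend removed it was at −0.32 (−0.55 to −0.086), the lowest of the 10 genes on that scale. That scale uses the longest annotated transcript, 3521 bases for Emcn, whose complete transcripts have a median of 1972.5 bases. Genes of 1852 to 2081 bases had a median log2 fold change of −0.21, so the value for Emcn depends on the length used. Relative to Cdh5, Plvap stood at 0.393 in Foxf1 fl/fl and 0.276 in αSMACreER;Foxf1-/- cells, Cd34 at 0.207 and 0.182, and Emcn at 0.179 and 0.131. These ratios keep the length trend. With it removed the log2 fold change of Cdh5 was 0.05, beside −0.13 for Plvap, 0 for Cd34 and −0.32 for Emcn. None of the 3 markers was 1.5-fold higher in the αSMACreER;Foxf1-/- library under any scaling tried.

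Egfl7 encodes a secreted protein that endothelial cells lay down in the matrix around them. It had an FPKM of 229 and 170 (ENSMUSG00000026921, chromosome 2 from 26580014 to 26593120, plus strand, 19 transcripts), from about 2153 and 1854 reads. It was lower in the αSMACreER;Foxf1-/- library at a ratio of 0.727, with a log2 fold change of −0.46 (−0.55 to −0.37), the lowest of the 10 genes, and 64.2% of all genes differed by less. It stood at 2.33 times the Cdh5 level in Foxf1 fl/fl and 1.51 times in αSMACreER;Foxf1-/- cells, ratios that keep the length trend. Agpat2, a lipid synthesis gene on the other strand, has exons that overlap those of Egfl7 and an FPKM of 14.4 and 11.003. The antisense gene Gm16897, with 0.424 and 1.05, overlaps exons of Cd34 in the same way. Counting by strand is not stated, so reads from such overlaps cannot be told apart. With the length trend removed Egfl7 remained lower, at −0.24 (−0.33 to −0.15). This used its longest transcript of 1865 bases, while its complete transcripts have a median of 1163. Genes of 984 to 1310 bases had a median log2 fold change of −0.35, so this value too depends on the length used.

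**Figure D2:**
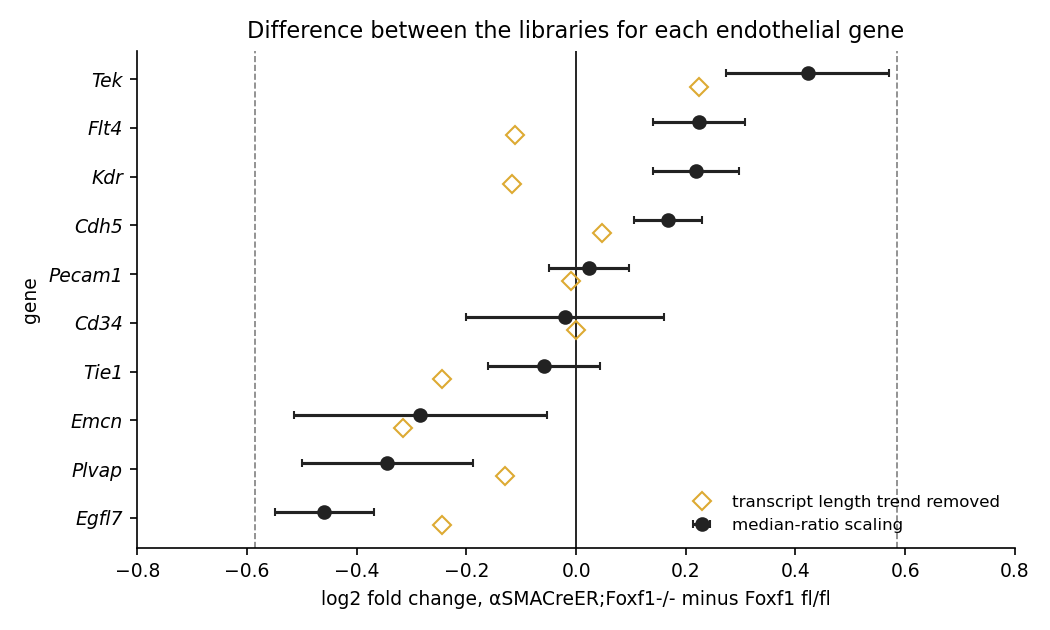
Log2 fold change (αSMACreER;Foxf1-/- minus Foxf1 fl/fl) of the 10 genes, as black points with 95% counting intervals after median-ratio scaling and as open diamonds after the transcript length trend was removed, with dashed lines at 1.5-fold. Values ran from −0.46 (Egfl7) to 0.42 (Tek), no point reached 1.5-fold, Tie1 and Cd34 changed sign with an equal FPKM sum, and Pecam1, Kdr and Flt4 changed sign with the length trend removed.

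Among the 10 genes the log2 fold change was higher where transcripts were longer. Egfl7 and Plvap, the lowest of the 10, have the shortest longest transcripts (1865 and 1987 bases), and Tek, Flt4 and Kdr, the highest, have the 3 longest (4654, 6255 and 5924 bases). Spearman's rho between the log2 fold change and the longest annotated transcript was 0.83 over the 10 genes. It was 0.45 over all 12670 genes, which share the same pair of libraries. With the median length of each gene's complete transcripts instead, rho was 0.88 over the 10 genes. In 20 groups of genes by length the median log2 fold change went from −0.41 in the group of 553 to 983 bases to 0.49 in the group from 7777 bases. After the median of its own length group was taken from each gene, 2 of the 10 genes were positive (Cdh5 at 0.05 and Tek at 0.22) and 7 negative, with a median of −0.11 and a range of −0.32 to 0.22, while Cd34 was the median of its group and came to 0. Counting intervals then lay above no change for 1 gene (Tek) and below it for 5 (Kdr, Flt4, Tie1, Emcn and Egfl7), where 22.7% and 24.7% of all genes did on the same scale. The part of transcript length in the genotype difference was not tested, since each genotype had 1 library.

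**Figure D3:**
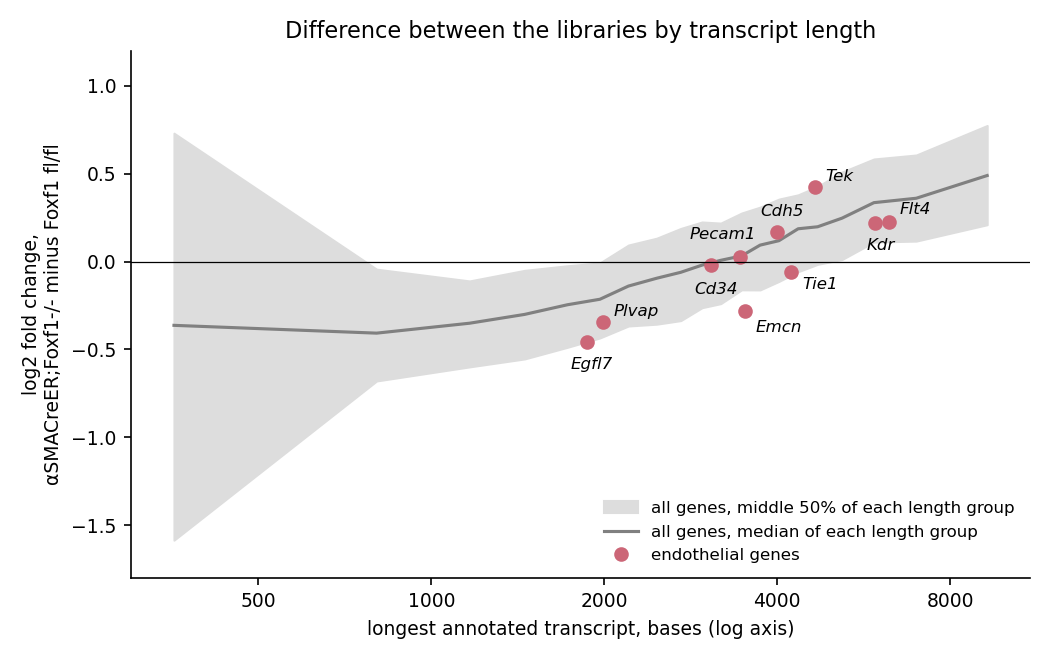
Log2 fold change (αSMACreER;Foxf1-/- minus Foxf1 fl/fl) against the longest annotated transcript in bases (log axis), with the median (grey line) and middle 50% (grey band) of all genes in 20 length groups and the 10 endothelial genes as red points. The medians ran from −0.41 to 0.49 with length, Tek (0.42) lay above the line, and Tie1 (−0.06), Emcn (−0.28) and Egfl7 (−0.46) lay below it.

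Sinusoidal and continuous vessel markers were read from separate lists to place the 10 genes among other endothelial genes, with members of the 10 left out. Of 17 further sinusoidal genes with an entry 15 passed the filter, and 0 were at least 1.5-fold higher and 0 lower, with a median of 0.24. With the length trend removed the median came to 0.036, and 1 gene, Stab1, was past 1.5-fold lower at −0.98. Stab1, a scavenger receptor that macrophages also carry, had an FPKM of 417 and 303 (−0.49), and Fcgr2b, an inhibitory Fc receptor, had 217 and 262 (0.25). The median FPKM of the sinusoidal list was 64.1 and 78.0, against 37.9 and 38.1 for the 10 endothelial genes.

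Of 25 further genes of continuous or capillarized vessels 22 passed, 5 of them at least 1.5-fold higher in αSMACreER;Foxf1-/- cells and 1 lower, with a median of 0.18 (0.21 with the length trend removed). Fabp4, a fatty acid carrier of capillary endothelium that macrophages and fat cells also express, had 415 and 305 (−0.47). Ly6a, which encodes the surface protein Sca-1, had 285 and 353 (0.28). Ednrb, the endothelin B receptor, had 7.11 and 16.5 (1.17, 0.97 to 1.38), and Cav2, a caveolin, had 4.89 and 10.96 (1.12, 0.58 to 1.67). Cav1, the main caveolin of endothelial cells, was past 1.5-fold too, at 33.9 and 59.0 (0.77), as were Vwf, the clotting factor carrier of larger vessels, at 4.14 and 7.15 (0.75) and Ly6c1 at 2.03 and 4.19, the latter from about 12 and 28 reads. Esm1, a proteoglycan of sprouting vessels, was the gene past 1.5-fold lower, at 17.0 and 10.3 (−0.74). Ednrb, Cav1, Cav2 and Ly6c1 stayed past 1.5-fold with the length trend removed, whereas Vwf came to 0.26. On that scale Ly6a (0.69) was also past 1.5-fold higher, for 5 genes higher in all. Past 1.5-fold lower were 3 genes, Esm1 (−0.60), Fabp4 (−0.66) and Lama4 (−0.66). Fabp4 was grouped by its longest transcript of 4231 bases, although its read estimate used a much shorter typical length. Its value on that scale therefore depends on the length used. Ednrb and the caveolins are also known from stellate cells and other stromal cells, and the cell type behind these values was not tested.

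Of 16 junction and adhesion genes all 16 passed, 1 of them at least 1.5-fold higher and 1 lower, with a median of 0.12. Vcam1 and Icam1, the leukocyte adhesion molecules, were the highest of the list at 383 and 366 and at 324 and 330. Cldn5, the claudin of endothelial tight junctions, was lower in the αSMACreER;Foxf1-/- library at 121 and 72.1 (−0.77, −0.89 to −0.66), and came to −0.47 with the length trend removed. Jam2, another junction protein, was higher at 16.0 and 31.0 (0.92, 0.72 to 1.13), and stayed past 1.5-fold at 0.74 with the length trend removed. Of 21 endothelial transcription factors 20 passed, with 1 at least 1.5-fold higher, 1 lower and a median of 0.07. Ets2 and Ets1 were the highest of them, at 98.6 and 98.3 and at 43.4 and 60.2 (0.44 for Ets1). Lyl1, a blood and vessel factor, was lower at 8.13 and 4.86 (−0.76, −1.15 to −0.36), and Mef2c was past 1.5-fold higher at 1.96 and 3.10 (0.61). With the length trend removed Lyl1 came to −0.51 and Mef2c to 0.27, both inside 1.5-fold. Of 7 lymphatic genes, 3 passed: Flt4, Lyve1, which sinusoids also carry, at 66.1 and 77.3, and Pdpn at 58.1 and 73.9. Prox1, the defining lymphatic factor, was low at 0.573 and 0.737.

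Markers of other cells moved between the libraries, and their part in the values of the 10 genes was not tested. All 19 hepatocyte genes were at least 1.5-fold lower in αSMACreER;Foxf1-/- cells, none was at 0, and their summed FPKM was 6186 and 2449, led by Alb (2292 and 912) and Trf (881 and 560). Ttr (322 and 86.8) and Apoa2 (782 and 220) differed most among them. The 20 macrophage markers, none at 0, summed to 14221 and 11668, with 1 at least 1.5-fold higher, 3 lower and a median of −0.30 that came to −0.07 with the length trend removed. Lyz2 (3682 and 3395) and C1qb (1632 and 1307) led them, Fcna (561 and 307), Cd163 (30.003 and 18.1) and Clec4f (1117 and 753) were the lower genes and Itgam (46.9 and 75.6) the higher one. The 20 stellate cell and myofibroblast markers, none at 0, summed to 455 and 657, and of 14 that passed 4 were at least 1.5-fold higher and 0 lower, with a median of 0.53 that came to 0.27 with the length trend removed, led by Dcn (127 and 186) and Col3a1 (115 and 164). The 4 were Hgf (4.64 and 7.60), Pdgfra (2.95 and 5.40), Des (1.70 and 3.29) and Vipr1 (1.29 and 2.67). Of the 14 genes 12 had a positive and 2 a negative log2 fold change. The negative ones were Acta2 (−0.48, −0.83 to −0.13) and Tagln (−0.37, −0.84 to 0.10), at −0.26 and −0.13 with the length trend removed. The study calls these cells stromal. Acta2, a myofibroblast marker, was low in the libraries at 7.77 and 5.65, as was Lrat, a stellate cell marker, at 0.0778 and 0.111.

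Pecam1, Tek and Cd34 are also expressed by blood cells. The 12 platelet genes summed to 200 and 161 with Gp6 at 0 in both libraries, and Clec1b (116 and 88.6), also a Kupffer cell gene, and Pf4 (64.5 and 51.4) made up most of this. The 16 lymphocyte and neutrophil genes summed to 2146 and 998, of which S100a9 had 1258 and 504 and S100a8 had 625 and 256, Retnlg had 83.7 and 42.9, Cd4 had 6.34 and 14.1, and Ly6g was at 9.82 and 0. The 12 progenitor and mast cell genes summed to 447 and 473, with Ms4a2 at 0 in both and Fcer1a at 0 in αSMACreER;Foxf1-/- cells. Ly6a (285 and 353) made up most of this, and the next highest was Hdc (130 and 92.4). Of the 7 that passed 3 had a positive and 4 a negative log2 fold change, with a median of −0.10. The 7 cholangiocyte genes with an entry summed to 558 and 659, none at 0. Spp1 (495 and 606), which macrophages also express, made up most of this. Krt19 had 39.7 and 29.5, and Epcam 8.38 and 5.65. Of the 6 that passed 3 had a positive and 3 a negative log2 fold change, with a median of −0.01.

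**Figure D4:**
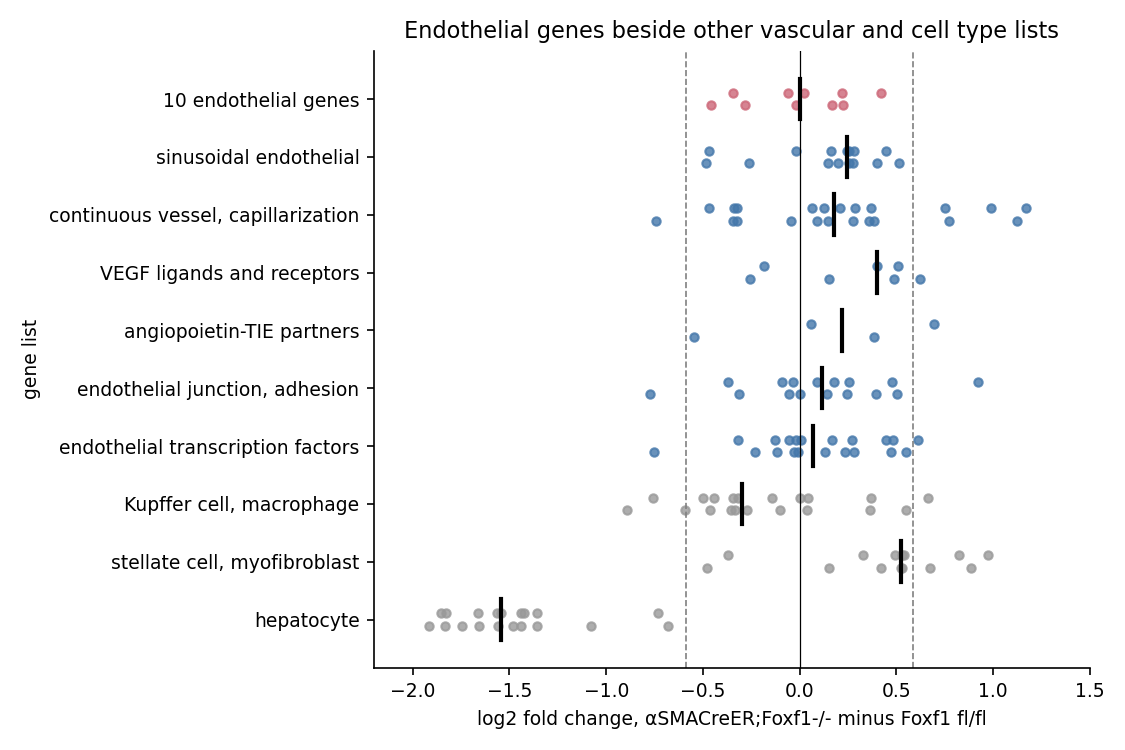
Log2 fold change (αSMACreER;Foxf1-/- minus Foxf1 fl/fl) of each gene that passed the filter, by list, with black bars at the list medians and dashed lines at 1.5-fold; red points are the 10 endothelial genes, which are left out of the lists below them, blue points other vascular lists and grey points other cell types. The 10 genes lay inside the dashed lines around a median of 0.0020 (0.19 with an equal FPKM sum), the sinusoidal list had a median of 0.24, the stellate list 0.53 and the hepatocyte list −1.54, which came to 0.036, 0.27 and −1.32 with the length trend removed.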

How the data were processed

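Single-end reads of 75 bases went through the Tophat/Cufflinks pipeline, and the authors deposited 1 FPKM per Ensembl gene and library, with mm10 named as build in the submitters' processing notes. Counting by strand is not stated. Symbols and positions came from GENCODE M21, which named 36490 of 38320 entries (95.2%), and the files' own positions of the 10 genes differ from it by at most 17 bases. Values of αSMACreER;Foxf1-/- were divided by 1.02, the median ratio over 11874 genes at FPKM 1 or more in each library. A pseudocount of 0.1 was added before log2, which understates changes of low genes. Summaries used the 12670 genes whose mean FPKM reached 1 and whose estimates had an OK status. The 1.5-fold limit is that of the study, and its false discovery rate could not be applied.

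Read numbers were estimated from whole-read steps among low values, of which 52.3% (of 831) and 54.3% (of 990) lay within 0.1 of a whole read, with an assumed fragment length of 200 bases. Whole reads were thus not recovered, and no count test was run. Intervals of single values are exact Poisson intervals on those reads, and intervals of differences use the same reads on the log scale. The length trend was removed by the median of 20 groups of longest annotated transcript. Read estimates used the median length of a gene's complete transcripts, which can be much shorter. Removal of the trend by that length was not run. Ratios of one gene to another within a library used FPKM as deposited and keep this trend. The scaling, fold limit and counting intervals were run on simulated Poisson reads, drawn with the same lengths and depths that the intervals assume. This simulation held no length trend and no error of depth. It therefore cannot check the depth estimate or the removal of the length trend. The 10 genes and the lists were chosen with earlier results of these data known. Outside the 10 genes and their binding partners, each list is represented by its highest 2 genes and by genes past 1.5-fold at a mean FPKM of at least 5, up to 4 in all. Des, Acta2, Tagln, Lrat, Pdgfra, Vipr1, Prox1, Mef2c, Vegfb, Pgf, Esm1, Vwf, Ly6c1 and Lama4 fall outside it and were named after their values were seen. The same holds for Clec4f, Itgam, Agpat2, Gm16897, Mir126a, Ly6g, Gp6, Ms4a2 and Fcer1a. Motifs were searched in 32851 RefSeq windows of 250 bases. Alternatives changed pseudocount, scaling, filter, fold limit, repeated symbols, length and centring. Foxf1 is not reported here. Scripts ran in Python 3.11.15 (scipy 1.17.1, numpy 2.4.6, pandas 2.3.3, with plots from matplotlib 3.10.9).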

Additional observations from a re-analysis of the deposited data

How the results depend on the processing

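The median log2 fold change of the 10 genes, 0.0020, moved to 0.19 when the libraries were scaled to an equal FPKM sum, to −0.11 with the length trend removed and to −0.24 when centred on the sinusoidal list. The first shifts all genes alike (their median came to 0.19) and the last subtracts that list's median. The number of the 10 genes at least 1.5-fold higher was 0 and became 1 (Tek) with the equal sum. Sinusoidal centring put 2 of the 10 past 1.5-fold lower, Egfl7 (−0.70) and Plvap (−0.59), as were 23.7% of all genes. Under the other settings run, both counts of the 10 genes were 0. Among all genes, 1616 were higher and 1674 lower, against 2752 and 1144 with the equal sum, 838 and 3001 with sinusoidal centring, 3832 and 3224 with no filter, 673 and 941 where mean FPKM reached 5, and 548 and 787 at 2-fold. By construction, the last settings change the genes counted or the limit. Removing the length trend turned the sign of Pecam1, Kdr and Flt4, sinusoidal centring that of Pecam1, Cdh5, Kdr and Flt4, the equal sum that of Tie1 and Cd34, and values as deposited and upper-quartile scaling that of Cd34.

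No paired analysis was possible because only 1 library represents each genotype, and no library was left out for the same reason. Depth limits Emcn and Cd34 most, with the fewest reads, and differences between animals cannot be separated from genotype.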

Other observations

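Of 11 Notch pathway genes 8 passed the filter, with 0 at least 1.5-fold higher, 1 lower and a median of 0.28 that came to 0.05 with the length trend removed. Notch1, a receptor active in endothelium, had an FPKM of 22.3 and 33.0 (0.54, 0.46 to 0.61), and Hes1, a target of Notch signalling, was lower in αSMACreER;Foxf1-/- cells at 33.0 and 20.6 (−0.70, −0.92 to −0.49). With the length trend removed these came to 0.05 and −0.40.

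Of 10 genes of vascular tone 7 passed, 1 of them at least 1.5-fold higher (Ednrb) and 0 lower, with a median of 0.07. Ptgis, the prostacyclin synthase, had 55.9 and 56.5, and Klf2, a flow-responsive factor that raises nitric oxide synthase, had 45.3 and 39.3 (−0.23). Klf2 came to 0.02 with the length trend removed and to −0.04 with an equal FPKM sum. Nos3, the endothelial nitric oxide synthase and chosen here after its values were seen, had 6.26 and 7.31 (0.20, −0.05 to 0.44). All 7 caveolar genes passed, with 2 at least 1.5-fold higher, Cav1 and Cav2, and 0 lower. The median of that list was 0.07, and Ehd4, a membrane-shaping protein, had 35.9 and 38.4. The difference between caveolins and the other caveolar genes was not tested.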
